A study of Mus musculus with 4 samples.

Results

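The SGK kinases and their targets were followed as 7 genes: the kinase genes Sgk1, Sgk2 and Sgk3, the substrate genes Nedd4l, Ndrg1 and Ndrg2, and Wnk1, which encodes a kinase that acts upstream. They are the rows of the deposited count table that carry these symbols, 7 of 23282 genes, matched by symbol alone. The cells were C2C12 myotubes, the fused muscle cells formed by a mouse myoblast line that the labels give as female. Steroids were withheld from all of them before they received vehicle or 1 µM dexamethasone, a synthetic glucocorticoid, for 2 h, with 2 libraries in each group. RNA was taken from washed chromatin of isolated nuclei, so the counts follow RNA that stayed with the chromatin. How much of it was still being transcribed was not measured. The myotubes are 1 cell line, the labels do not say that the libraries of a group came from separate cultures, and p-values then measure the spread between these libraries, which may be technical.

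SGK1 was named as a kinase whose gene is switched on by serum and glucocorticoids. The SGK kinases are close relatives of Akt and become active once PDK1 and the mTORC2 complex phosphorylate them, so SGK1 activity in a cell depends on both its amount and this activation. Active SGK1 phosphorylates NEDD4L, a ubiquitin ligase that otherwise marks the epithelial sodium channel for removal, and NDRG1 and NDRG2, whose phosphorylation is widely used as a readout of SGK activity. In skeletal muscle SGK1 has been linked to the upkeep of muscle mass.

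Between 19631435 and 88596296 reads were counted on genes per library, the fewest in vehicle replicate 1 and the most in dexamethasone replicate 2. Levels are given as scaled CPM, that is, counts relative to each library's total after TMM scaling between libraries. Of the 8 myotube markers examined all 8 were detected, and their summed level was 123368 and 42934 CPM in vehicle replicates 1 and 2 and 118842 and 41877 CPM in dexamethasone replicates 1 and 2, so that libraries split by replicate number. As a reference for the treatment, Fkbp5, a co-chaperone gene of steroid receptors, had 400 and 819 counts in vehicle and 30537 and 65051 in dexamethasone. Among the 7 genes, 6 had enough counts to test, and Sgk2 did not. In edgeR's quasi-likelihood test, with p adjusted by Benjamini-Hochberg over all 13285 genes tested, 0 of the 6 passed 0.05 in either direction, against 0.0376% of all genes called higher and 0% called lower. With p under 0.05 before adjustment, 1 of the 6 was higher (Sgk1) and 1 was lower (Ndrg1), where 4.09% of all genes were higher and 1.69% lower. The Wald test of DESeq2 called Sgk1 higher and Ndrg1 lower and no other of the 6, where it called 1.81% of all genes higher and 0.407% lower. The same pair was called by edgeR's likelihood ratio test, with 1.83% of all genes higher and 0.339% lower.

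Sgk1 (ENSMUSG00000019970, chromosome 10), the glucocorticoid-regulated kinase of the family, was the member with the largest difference. It had 467 and 813 counts in vehicle replicates 1 and 2 and 2651 and 7581 counts in dexamethasone replicates 1 and 2. As scaled CPM these were 25.1 and 21.4 against 88.4 and 81.2, with means of 23.2 ± 2.56 and 84.8 ± 5.13 (SD, n = 2 each). Both dexamethasone libraries stood far above both vehicle libraries, and the gap between the group means was many times the SD of either group. The level was 3.65-fold higher after dexamethasone (95% interval 2.77 to 4.83), a log2 fold change of 1.87 (SE 0.152). Of the 13285 genes tested, 92 had a larger log2 fold change and 10 had a smaller p. The unadjusted p was 0.000114 and the edgeR adjusted p 0.117, which misses the threshold. Between libraries of the same replicate number the log2 ratio was 1.82 for number 1 and 1.92 for number 2. The call depended on the test: the adjusted p was 3.46e-14 with DESeq2's Wald test, 6.56e-13 with edgeR's likelihood ratio test and 0.0458 when every gene with a count was tested, and it was 0.0187 without vehicle replicate 2. Over the alternatives it ran from 3.46e-14 to 0.146, while the log2 fold change stayed between 1.77 and 1.99. Fibroblast and adipocyte markers were higher in sum as well, though not each of them. The 4 listed together had 6.87 and 4.90 CPM in vehicle and 9.54 and 12.3 CPM in dexamethasone, nearly all of it Pdgfra (log2 fold change 1.04). Dpt, the other of the 2 that could be tested, was lower (-1.51), with 13 and 16 counts in vehicle and 8 and 13 in dexamethasone. Adipoq had 7 counts or fewer and Plin1 2 or fewer in each library. Their part in the Sgk1 result was not tested.

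**Figure D1:**
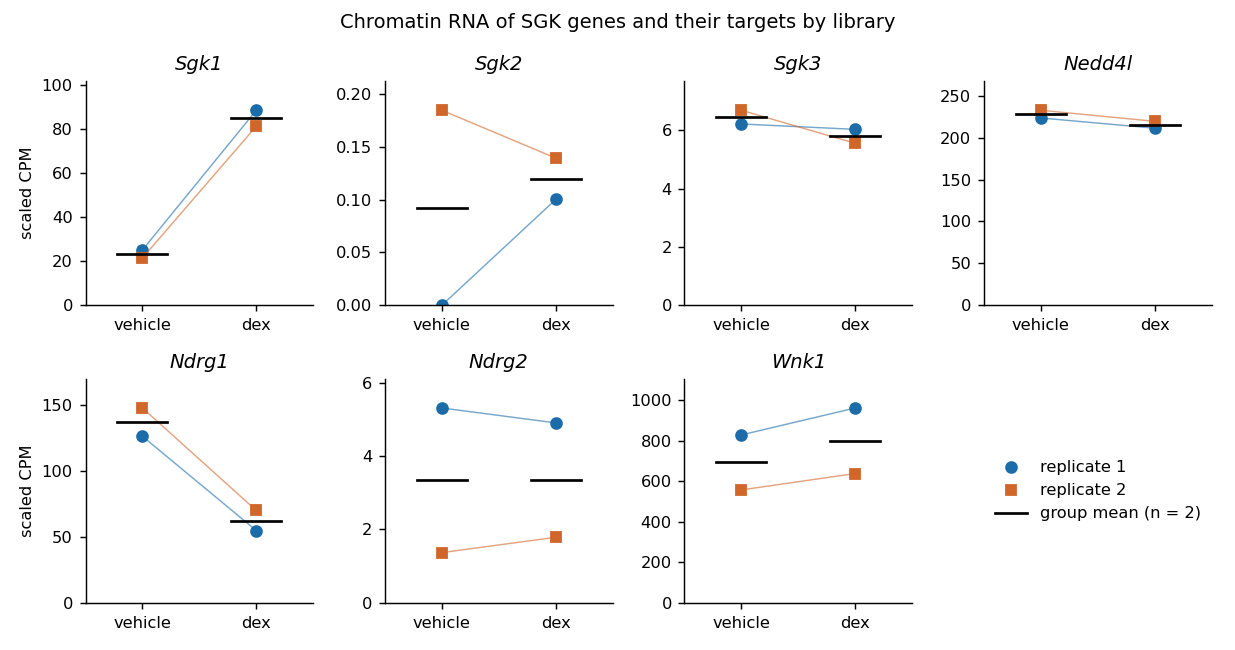
Scaled CPM (vertical axes, from 0) of each of the 7 genes in the 2 vehicle and 2 dexamethasone libraries, with black bars at the group means and lines joining libraries of the same replicate number. Sgk1 stands at 81.2 CPM or more in the dexamethasone libraries and at 25.1 or less in the vehicle libraries, Ndrg1 shows the opposite order, and Ndrg2 and Wnk1 split by replicate number.

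Glucocorticoids act through a receptor that binds an inverted repeat of AGAACA with 3 letters between the arms, the glucocorticoid response element. Because Sgk1 is the member with the higher level after dexamethasone, its promoter windows are shown here. RefSeq promoter windows (GRCm38.p6) were found for 3 of the 7 genes by symbol: 6 windows for Sgk1, 3 for Ndrg2 and 1 for Wnk1. Sgk2, Sgk3, Nedd4l and Ndrg1 had none. The 250 bases before each start were searched on both strands for the full element (AGAACA, any 3 letters, TGTTCT) and for its arm AGAACA. Each full element holds 2 arms. Only exact matches were counted, so inexact forms of the element and sites outside these bases were not searched for. The full element was present in 1 of the 10 windows, that of an Sgk1 start, and an arm in 3 of the 10, all of Sgk1. Of all 32851 windows of the same length, 3 held the full element (0.00913%) and 16.1% held an arm. The first sequence below is the Sgk1 window with the element (chr10:21993640-21993889, plus strand, GRCm38.p6), and the second is the window of the Sgk1 start nearest the 3′ end (chr10:21994416-21994665, plus strand), printed for comparison. Capitals mark each arm or full element, and each run ends at the base before its start.
Sgk1 window with the element: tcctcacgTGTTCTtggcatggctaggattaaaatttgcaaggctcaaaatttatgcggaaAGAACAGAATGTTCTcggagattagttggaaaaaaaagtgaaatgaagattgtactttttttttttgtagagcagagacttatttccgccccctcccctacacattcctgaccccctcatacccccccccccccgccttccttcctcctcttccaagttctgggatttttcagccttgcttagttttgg
Sgk1 window of the last start: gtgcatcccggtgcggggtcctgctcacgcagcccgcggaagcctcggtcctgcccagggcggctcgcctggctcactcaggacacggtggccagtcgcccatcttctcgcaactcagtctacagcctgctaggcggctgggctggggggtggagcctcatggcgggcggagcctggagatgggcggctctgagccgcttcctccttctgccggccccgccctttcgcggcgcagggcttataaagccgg
The element reads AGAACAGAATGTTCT, with both arms complete. It lies 189 to 175 bases before its own start and begins 965 bases before the last start. Another arm stands near the 5′ end of the same window, and the window of the last start has 0 arms. The counts are per gene, so they do not tell which of the 6 starts the reads came from, and a match of letters is a description of the sequence and not evidence of binding.

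The other kinase genes of the family had low levels and no such difference. Sgk3 (ENSMUSG00000025915, chromosome 1), which encodes a kinase held at endosomes by a domain that binds a phosphoinositide, had 116 and 254 counts in vehicle and 181 and 519 in dexamethasone. That was 6.22 and 6.69 CPM against 6.04 and 5.56 CPM. Both dexamethasone libraries lay just below both vehicle libraries, with means of 6.46 ± 0.333 and 5.80 ± 0.340 (SD, n = 2 each), and 12.9% of all tested genes showed this order. The log2 fold change was -0.16 (SE 0.196) with a 95% interval of -0.68 to 0.36, an unadjusted p of 0.459 and an edgeR adjusted p of 1.00. The interval leaves room for a fall to 0.625 of the vehicle level or a rise to 1.28 times it. Sgk2 (ENSMUSG00000017868, chromosome 2) had 0 and 7 counts in vehicle and 3 and 13 in dexamethasone, at most 0.184 CPM. With 3 counts taken as the least that a library can show, the limit is 0.161 CPM in vehicle replicate 1 and 0.0321 CPM in dexamethasone replicate 2, so no fold is given and a difference in Sgk2 was not detectable at this depth. Such limits, and the Wilson intervals of shares given next, cover counting error only.

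The balance among the SGK genes differed between the groups. Sgk1 supplied 80.1% of the reads counted on the 3 SGK genes in vehicle replicate 1 (95% Wilson interval 76.7% to 83.1%) and 75.7% in vehicle replicate 2 (73.0% to 78.2%). In dexamethasone replicates 1 and 2 it supplied 93.5% (92.5% to 94.4%) and 93.4% (92.9% to 94.0%). Within a library, where scaling between libraries plays no part, there were 4.01 and 3.20 Sgk1 counts for each Sgk3 count in vehicle and 14.6 and 14.6 in dexamethasone. On the log2 scale, with 0.5 counts added, the ratio was 1.84 ± 0.232 in vehicle and 3.87 ± 0.00105 in dexamethasone (SD, n = 2 each). The difference was 2.03, and the groups did not overlap. With 0 or 2 counts added, the SD in dexamethasone was 0.00275 or 0.00403. So close an agreement of 2 libraries does not measure reproducibility. Counting error is wider, with a Wilson interval of 5.54% to 7.34% for the Sgk3 share in dexamethasone replicate 1. The exact permutation test, two-sided, gave p = 0.333, which is the smallest that 2 libraries against 2 allow, so this design could not pass 0.05.

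Among the substrate genes, Ndrg1 (ENSMUSG00000005125, chromosome 15) was lower after dexamethasone. NDRG1 is a stress- and hypoxia-responsive cytoplasmic protein. Its gene had 2358 and 5616 counts in vehicle replicates 1 and 2 and 1646 and 6551 in dexamethasone replicates 1 and 2. Scaled to library size these were 126 and 148 CPM against 54.9 and 70.2 CPM, with means of 137 ± 15.2 and 62.5 ± 10.8 (SD, n = 2 each). Both dexamethasone libraries lay below both vehicle libraries, and the means differed by more than the SD of either group. The vehicle level was 2.19-fold that after dexamethasone, a log2 fold change of -1.13 (SE 0.181, 95% interval -1.61 to -0.65). Of 13285 genes, 135 had a lower log2 fold change and 140 a smaller p. The unadjusted p was 0.00214 and the edgeR adjusted p 0.201, which misses the threshold. Ndrg1 passed with DESeq2's Wald test (adjusted p 0.000210) and with the likelihood ratio test (0.000322), over a range of 0.000196 to 0.755 across the alternatives. Between libraries of the same number the log2 ratio was -1.20 and -1.08. Markers of unfused or dividing myoblasts, 6 in all, were lower in sum but not each. They had 56.6 and 61.3 CPM in vehicle against 42.0 and 49.9 CPM in dexamethasone. Only Pax7, a factor of muscle stem cells, had a log2 fold change below 0 (-0.80, SE 0.201, edgeR adjusted p 0.456). Its level was 32.0 and 39.0 CPM in vehicle and 17.9 and 22.9 CPM in dexamethasone. The other 5 were above 0, up to 0.30 for Myf5. The part of these markers in the Ndrg1 result was not tested, and in a bulk sample fewer cells of a type and less RNA per cell cannot be told apart.

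Nedd4l (ENSMUSG00000024589, chromosome 18), the ubiquitin ligase that SGK1 inhibits, showed the narrowest spread of the 7 genes. Its counts were 4168 and 8834 in vehicle and 6336 and 20507 in dexamethasone, or 224 and 233 CPM against 211 and 220 CPM. The dexamethasone libraries lay below the vehicle libraries, but by little: the means were 228 ± 6.52 and 216 ± 5.83 (SD, n = 2 each). The log2 fold change was -0.08 (SE 0.118) and its 95% interval of -0.40 to 0.23 bounds the level after dexamethasone between 0.760 and 1.17 times that in vehicle. A change as large as that of Sgk1 or Ndrg1 lies outside this interval. The edgeR adjusted p was 1.00 (unadjusted 0.518). GENCODE M21 places genes on the opposite strand over Sgk3, Nedd4l, Ndrg1 and Wnk1, and since the strand setting of the counting is not given in the sources used here, reads from either strand cannot be told apart in these 4 members.

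Ndrg2 (ENSMUSG00000004558, chromosome 14), the second NDRG substrate, followed the replicate number and not the treatment. It had 99 and 52 counts in vehicle replicates 1 and 2 and 147 and 167 in dexamethasone replicates 1 and 2, or 5.31 and 1.37 CPM against 4.90 and 1.79 CPM. The replicate 1 library was 3.88 times the replicate 2 library in vehicle and 2.74 times in dexamethasone. The summed myotube markers given above, most of which is Ttn (118127 of 123368 CPM in vehicle replicate 1), also followed the replicate number. Mymk, from the same list, did not, with 176 and 173 CPM in vehicle and 208 and 208 CPM in dexamethasone. The part of these markers in the splits of Ndrg2 and Wnk1 was not tested. The groups overlapped, with a log2 fold change of 0.01 (SE 0.823, edgeR adjusted p 1.00) and a 95% interval from -2.17 to 2.19, which spans more than 4-fold in either direction. Within a library there were 23.7 and 107 Ndrg1 counts for each Ndrg2 count in vehicle replicates 1 and 2, and 11.2 and 39.1 in dexamethasone replicates 1 and 2. On the log2 scale the ratio was 5.65 ± 1.54 in vehicle and 4.39 ± 1.28 in dexamethasone (SD, n = 2 each), a difference of -1.27. The groups overlapped and the exact permutation test, two-sided, gave p = 0.667. Within number 1 the difference was -1.09 and within number 2 it was -1.45.

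**Figure D2:**
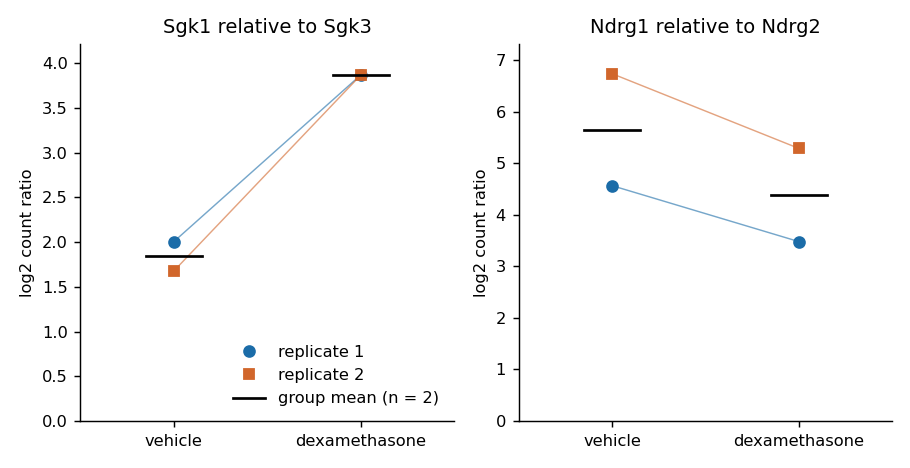
Log2 ratio of counts within each library (vertical axes, from 0) for Sgk1 over Sgk3 (left) and Ndrg1 over Ndrg2 (right), with black bars at group means and lines joining libraries of the same replicate number. The Sgk1 to Sgk3 ratio is 1.68 and 2.00 in vehicle and 3.87 in both dexamethasone libraries, while the Ndrg1 to Ndrg2 ratio overlaps between groups.

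Wnk1 (ENSMUSG00000045962, chromosome 6) encodes a chloride-sensitive kinase that controls cation-chloride cotransporters and can activate SGK1. It had the highest level of the 7 genes per kilobase of exon, with 15429 and 21127 counts in vehicle and 28788 and 59517 in dexamethasone. As scaled CPM these were 828 and 557 against 960 and 637. Here too the libraries split by number: replicate 1 was 1.49 times replicate 2 in vehicle and 1.51 times in dexamethasone. The groups overlapped, with a log2 fold change of 0.21 (SE 0.299, 95% interval -0.59 to 1.00, edgeR adjusted p 1.00). Between libraries of the same number the log2 ratio was 0.21 for number 1 and 0.20 for number 2. Without vehicle replicate 2 the log2 fold change was -0.04 and without dexamethasone replicate 1 it was -0.11. Without vehicle replicate 1 it was 0.52 and without dexamethasone replicate 2 it was 0.47. Each of these fits leaves the replicate numbers unequal between the groups.

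**Figure D3:**
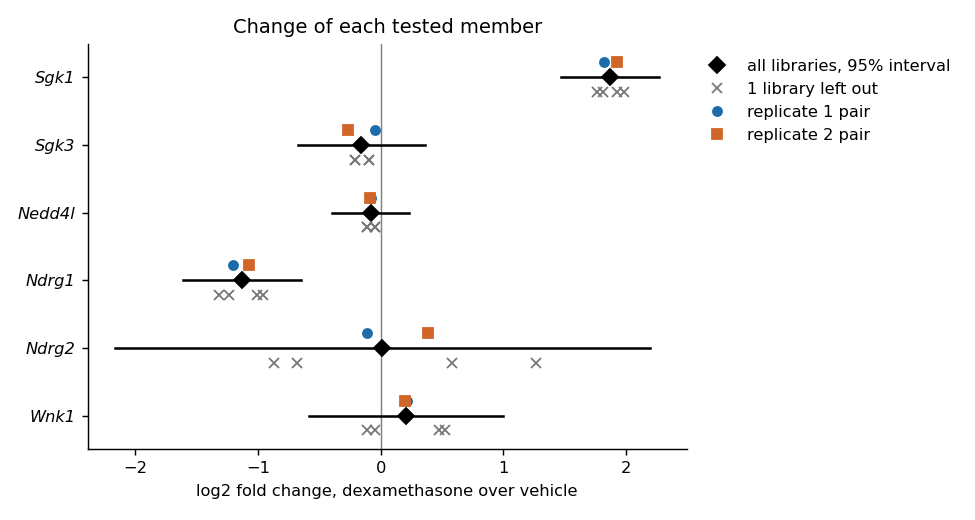
Log2 fold change of the 6 tested genes (horizontal axis; positive is higher after dexamethasone): black diamonds and lines are the estimate and its 95% interval, coloured points the ratio between libraries of the same replicate number, and crosses the fits that left out 1 library. The intervals of Sgk1 (1.47 to 2.27) and Ndrg1 (-1.61 to -0.65) do not reach 0, and that of Ndrg2 is the widest.

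Levels of different genes can be compared only per length. Per kilobase of annotated exon the vehicle means were 30.3 CPM for Wnk1, 20.8 for Ndrg1, 12.9 for Nedd4l, 4.74 for Sgk1, 0.983 for Ndrg2, 0.451 for Sgk3 and 0.0270 for Sgk2. In this order of levels, Ndrg2 and Sgk3 were not separated, since vehicle replicate 2 had 0.403 CPM per kilobase of Ndrg2 and 0.468 of Sgk3, and the libraries of all other neighbours did not overlap. After dexamethasone Sgk1, at 17.3 CPM per kilobase of exon, stood second behind Wnk1 at 35.0 and above Nedd4l at 12.2, and Ndrg1, at 9.48, stood below Nedd4l. Libraries of Wnk1 and Sgk1, of Sgk1 and Nedd4l, and of Nedd4l and Ndrg1 did not overlap in the dexamethasone group. Among the genes tested, the vehicle level of Sgk1 per kilobase of exon was at percentile 51.5, that of Sgk3 at 13.9 and that of Wnk1 at 92.6. Whether introns were counted is not given. Per kilobase of whole gene, introns included, the order differed. The farthest annotated start of Sgk1 stretches the gene to 118 kb, and its vehicle mean was 0.197 CPM, against 0.376 for Ndrg2. These libraries overlapped, with 0.213 and 0.182 for Sgk1 and 0.598 and 0.154 for Ndrg2 in vehicle replicates 1 and 2. After dexamethasone the means per kilobase of whole gene were 6.97 for Wnk1, 1.55 for Ndrg1, 0.720 for Sgk1 and 0.653 for Nedd4l. By this measure Ndrg1 remained above Sgk1 and Nedd4l.

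**Figure D4:**
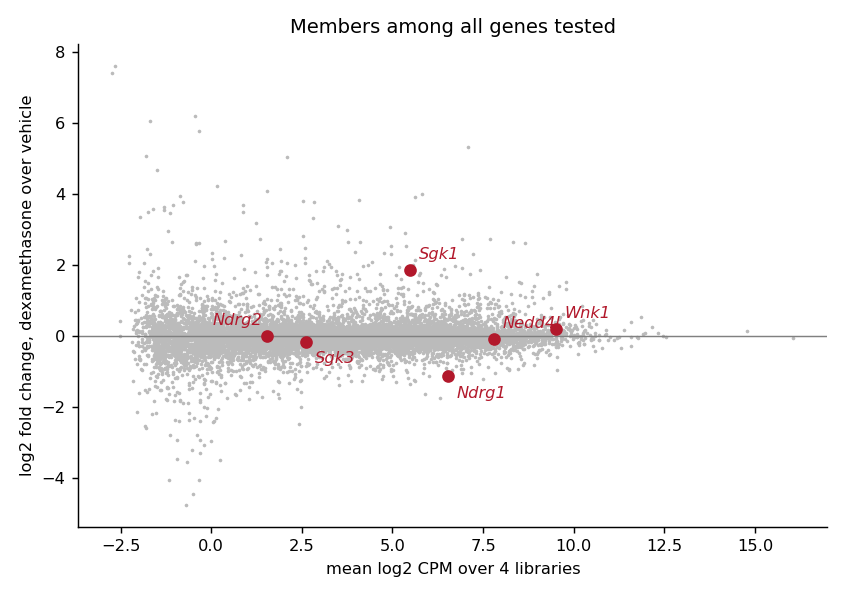
Log2 fold change (vertical axis; positive is higher after dexamethasone) against mean log2 CPM over the 4 libraries (horizontal axis) for the 13285 genes tested, in grey, with the 6 tested members in red. Sgk1 at 1.87 and Ndrg1 at -1.13 lie at the edges of the cloud for genes of their level, and the other 4 lie within it.

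The genes around the members were counted in 8 lists, written from general knowledge but with earlier results of these data known. The lists were thus not independent of the data, and the shares below only describe them. They hold 66 genes, of which 65 are in the table and 58 had enough counts to test. In edgeR 0 of the 58 passed after adjustment over all genes. Before adjustment 4 were higher with p under 0.05 and 0 were lower, beside the 4.09% and 1.69% of all tested genes given above. Groups without overlap had dexamethasone the higher in 10 of the 58 and the lower in 7, where 15% of all tested genes had dexamethasone higher in this way and 12.9% lower. The median log2 fold change of the 58 was -0.06, against -0.00159 over all genes.

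Of the 8 tested genes for activators of SGK, PDK1 and the subunits of mTORC2, 3 had a log2 fold change above 0 and 5 below, with a median of -0.04. Deptor, which encodes an inhibitory subunit of the mTOR complexes, was the exception in size. It had 5196 and 10315 counts in vehicle and 26950 and 89110 in dexamethasone, or 279 and 272 CPM against 899 and 954 CPM. The groups were far apart, with a log2 fold change of 1.75 (SE 0.131, edgeR adjusted p 0.117). DESeq2's Wald test gave an adjusted p of 1.02e-17, and over the alternatives it ran from 1.02e-17 to 0.152. The lowest value in the list was that of Prr5l at -0.48 (SE 0.622), whose libraries overlapped between groups.

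Among 6 tested partners of SGK1 and factors of its degradation the median was 0.02. Tsc22d3, which encodes GILZ, a glucocorticoid-induced protein that acts with SGK1 on the epithelial sodium channel, had 1222 and 1244 counts in vehicle and 12142 and 22383 in dexamethasone. Its log2 fold change was 2.72 (SE 0.455, edgeR adjusted p 0.213), and the lowest in the list was that of Syvn1 at -0.13. Of 7 other substrate genes, Foxo3, an atrophy-linked transcription factor that SGK1 and Akt hold in the cytoplasm, had 202 and 244 CPM in vehicle and 658 and 592 CPM in dexamethasone. Its log2 fold change was 1.49 (SE 0.162, edgeR adjusted p 0.123), beside a list median of -0.03 and a lowest value of -0.24 for Gsk3b.

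The families of the other members showed smaller values. The 9 tested genes of NEDD4-type ligases and their adaptors ran from -0.28 for Hecw2 to 0.06 for Ndfip1 (median -0.06), so that Nedd4l at -0.08 was near their middle. The other NDRG genes, Ndrg3 at -0.11 (SE 0.121) and Ndrg4 at -0.16 (SE 0.223), were not near the -1.13 of Ndrg1. Of 14 tested genes of the WNK pathway, 6 were above 0 and 8 below, with a median of -0.06. Slc12a7, a potassium-chloride cotransporter gene of this list, had 72.9 and 83.3 CPM in vehicle and 124 and 122 CPM in dexamethasone, a log2 fold change of 0.66 (SE 0.131, edgeR adjusted p 0.302). Wnk4 had the lowest value, -0.16. Oxsr1, the gene of a kinase that WNK1 phosphorylates, is listed at 0 in all 4 libraries within a run of 371 neighbouring genes on the same strand of chromosome 9 with no counts, and was not read as silent.

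Of the 8 genes for sodium transport 5 could be tested, from -0.44 for Atp1b1 to 0.07 for Scnn1a, with a median of -0.17. Atp1b1, a subunit of the sodium pump, had 13.4 and 11.6 CPM in vehicle and 9.57 and 8.75 CPM in dexamethasone (SE 0.181, edgeR adjusted p 0.920). Among the subunits of the epithelial sodium channel, the classical endpoint of SGK1 and NEDD4L in kidney, Scnn1g was listed at 0, Scnn1b had 1 and 1 counts in vehicle and 10 and 17 in dexamethasone, too few to test, and Scnn1a had at most 187 counts. The 7 related AGC kinase genes, Akt and the S6 and RSK kinases, ran from -0.29 for Rps6ka3 to 0.09 for Akt2, with 1 above 0 and 6 below. In Sgk1 alone among the 9 AGC kinase genes of both families that were tested (Sgk1, Sgk3 and these 7), the 95% interval of the log2 fold change lay above 0.

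**Figure D5:**
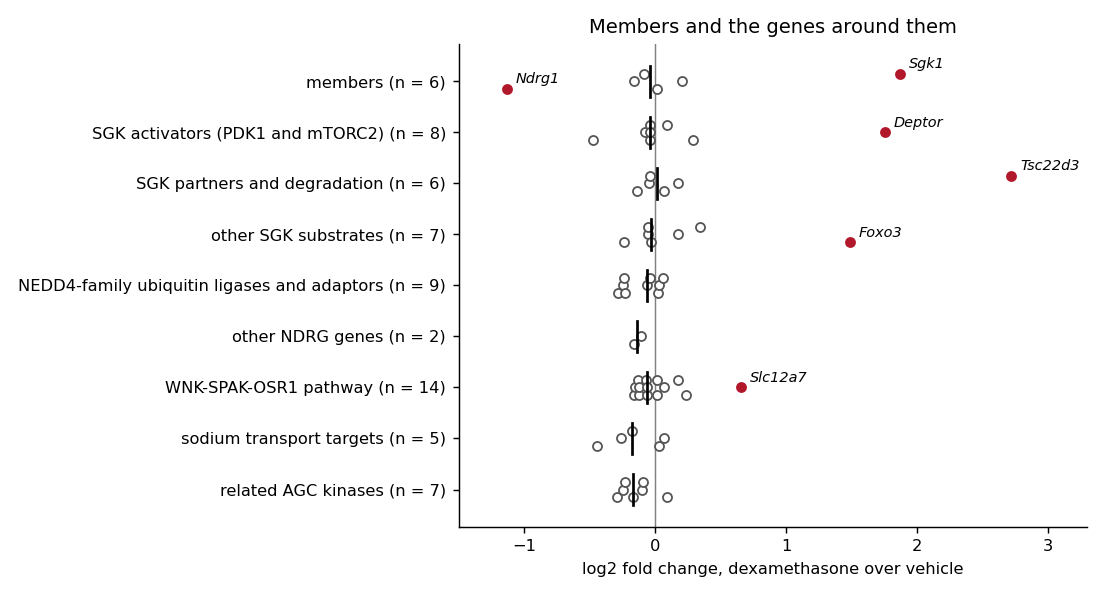
Log2 fold change (horizontal axis; positive is higher after dexamethasone) of the tested members and of the tested genes of 8 lists (rows), 1 circle per gene, filled where the unadjusted edgeR p was under 0.05, with black bars at list medians. The list medians lie between -0.17 and 0.02, and Sgk1, Deptor, Tsc22d3, Foxo3, Slc12a7 and Ndrg1 are the filled circles.

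Genes with the pattern most like that of each member were found from log2 CPM centred on the gene's mean over the 4 libraries, among 11630 genes with at least 20 counts in every library. Nearest to Sgk1 were C430049B03Rik, Kcnh1 and Deptor, with root mean square differences of 0.099, 0.108 and 0.116 on the log2 scale, against a range of 2.04 for Sgk1 itself. C430049B03Rik had 495 and 917 counts in vehicle and 3062 and 7331 in dexamethasone. Kcnh1, a voltage-gated potassium channel gene, had 41 and 73 against 286 and 701. Nearest to Ndrg1 was Fas, the gene of a death receptor, at 0.0728, with 20.9 and 24.6 CPM in vehicle and 8.07 and 10.7 CPM in dexamethasone. The nearest for the others were Sh3d21 for Sgk3 (0.0201), Kcnq1ot1 for Nedd4l (0.00682), Ndufa1 for Ndrg2 (0.0506) and Alg11 for Wnk1 (0.0119). A flat profile has many such neighbours: 2257 genes lay within 0.1 of Nedd4l, but 1 lay within 0.1 of Sgk1 and 4 within 0.1 of Ndrg1. The likeness covers 4 libraries only.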

How the data were processed

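Nuclear RNA bound to chromatin was sequenced in 4 libraries of C2C12 myotubes, 2 per group. The labels' protocols name both a stranded total RNA and a stranded mRNA kit. The table deposited by the authors holds unnormalized counts for each gene. The submitters' processing notes name TopHat2 2.0.13, SAMtools 1.1, HTSeq 0.6.1, DESeq2 1.18.1 and build mm9, without roles, and what was counted (exons or whole genes, which strand) is not given in the sources used here. Of 23333 rows, 51 repeated an earlier gene and its counts and were used once.

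Counts were tested with edgeR 4.0.16 (R 4.3.3): filterByExpr (minimum count 10, minimum total 15), TMM scaling, a quasi-likelihood test on group alone, two-sided, Benjamini-Hochberg over 13285 genes, threshold 0.05. Standard errors come from the fold change and the F statistic. Pseudocounts were 2 for log2 CPM and 0.5 for ratios. Lengths and overlaps came from GENCODE M21 and promoters from RefSeq (GRCm38.p6). Since the notes name mm9, these were matched by identifier or symbol, and no gene coordinates are given.

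Alternatives were other scalings, filters and tests (DESeq2 1.42.0, limma-voom 3.58.1, likelihood ratio), a replicate block, thinning and leaving out each library. The procedures were tested on simulated data with less spread than these libraries (common biological coefficient of variation 0.245) and no replicate effect. That test does not show how they perform at the spread seen here. Named were all members, the highest and lowest gene of each list and the nearest genes. The members and lists were chosen with earlier results of these data known. Depth ran from 19631435 to 88596296 counts, so a gene near 10 counts is imprecise in the smallest library. Every pair of libraries differed by far more than counting noise (chi-square per degree of freedom at least 44.7), so none was counted as a repeat.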

Additional observations from a re-analysis of the deposited data

How the results depend on the processing

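The direction of Sgk1, Sgk3, Nedd4l and Ndrg1 held under all 14 alternatives, with log2 fold changes of 1.77 to 1.99, -0.29 to -0.10, -0.12 to -0.05 and -1.32 to -0.96. The number of calls depended on the test; the cause was not tested. The main test called 5 genes higher and 0 lower (543 and 225 at an unadjusted p under 0.05), the Wald test of DESeq2 236 and 53, edgeR's likelihood ratio test 243 and 45, the fit with no expression filter 23 higher, and limma-voom 0 higher (540 at an unadjusted p under 0.05). Of the members, the Wald test, the likelihood ratio test and the fit with no expression filter each called 1 higher, Sgk1 (log2 fold change 1.86, 1.87 and 1.88). The Wald and likelihood ratio tests also called 1 lower, Ndrg1 (-1.15 and -1.13). Ndrg2 changed sign with upper quartile scaling (-0.0163), library size only (-0.0181) and DESeq2 (-0.00315). Its sign also changed, with larger values, without vehicle replicate 2 (-0.686) and without dexamethasone replicate 1 (-0.870).

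Leaving out 1 library, with the lone library assumed to vary like the other group, gave 4 to 84 genes higher and 0 to 109 lower, both highest without vehicle replicate 2, and 0 to 1 member higher and 0 lower. Ranges were 1.77 to 1.99 for Sgk1, -0.87 to 1.26 for Ndrg2 and -0.11 to 0.52 for Wnk1.

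The labels do not say that a replicate number marks a shared culture, and with 2 libraries a group pairing could not be established. Across genes, the gap between replicates 1 and 2 in vehicle and that in dexamethasone had r = 0.734. With the replicate block, 913 genes were higher and 768 lower, and 2 members higher (Sgk1, 1.88, adjusted p 5.80e-05; Wnk1, 0.205, adjusted p 0.0466) and 1 lower (Ndrg1, -1.14, adjusted p 0.000196), with 1 residual degree of freedom. Within numbers 1 and 2 the Sgk1 to Sgk3 ratio differed by 1.86 and 2.19. Depth limits Sgk2 and the sodium channel genes.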

Other observations

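An exact match to the full glucocorticoid response element (AGAACA, any 3 letters, TGTTCT) stood in 3 of the 32851 RefSeq windows searched. Inexact forms and sites outside the windows were not searched for, so this is not a count of all such elements. Besides that of Sgk1, the windows with a match belong to Acnat2, which is listed at 0 in all 4 libraries, and to Gm35041, which was not analysed here. Both were named after the search was seen. Scnn1b had 1 and 1 counts in vehicle and 10 and 17 in dexamethasone, or 0.0536 and 0.0264 CPM against 0.334 and 0.182 CPM. The vehicle counts are under the 3 taken as the least that a library can show, a limit of 0.161 and 0.0791 CPM. The groups did not overlap, but 15% of all tested genes had dexamethasone higher in this way. Scnn1b had too few counts to test, so no fold is given and a difference was not tested.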
